A study of Mus musculus with 18 samples.

Results

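The transmitter identity genes are 9 genes that define which neurotransmitter a neuron makes and packs into vesicles: Gad1, Gad2 and Slc32a1 for GABA, Slc6a5 for glycine, Slc17a6 and Slc17a7 for glutamate, Chat and Slc18a3 for acetylcholine, and Tph2 for serotonin. Every array probe annotated with one of these symbols was taken, which gave 16 probes of 45281 on the array and 9 symbols of 30869. Gad1 has 4 probes, Chat has 3, Slc17a6 and Slc6a5 have 2 each, and the other genes have 1 each. The array's annotation places Slc32a1 on chromosome 2, Slc17a6, Slc17a7 and Slc6a5 on chromosome 7, Chat and Slc18a3 on chromosome 14 and Tph2 on chromosome 10, and gives none for the probes of Gad1 and Gad2.

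The study followed murine ESD3 embryonic stem cells (D3, strain 129s2/SvPas) as they were differentiated toward dopaminergic neurons through spherical neural masses (SNM). WT control cells carried a viral shRNA against luciferase, and HPRT knockdown cells carried a viral shRNA against HPRT, the purine salvage enzyme that is deficient in Lesch Nyhan disease. The vector is called a retrovirus in the sample labels, while the study's methods use both lentiviral and retroviral for it. RNA came from control and knockdown cells at 3 stages (ES cells, kept on mouse embryo fibroblast feeders, then SNM, then neuronal), and each of the 6 conditions was measured on 3 arrays (Illumina MouseWG-6 v2). The 3 arrays of a condition share 1 pool of RNA from replicate cultures, so SDs and p-values measure the error of hybridisation only, not how cultures vary, and an exact permutation test of 3 arrays against 3 cannot go below p = 0.1.

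A neuron's transmitter is set by a small battery of genes. Glutamate decarboxylases, encoded by Gad1 and Gad2, make GABA, and the transporter encoded by Slc32a1 loads GABA and glycine into synaptic vesicles, while Slc6a5 recovers glycine into the terminals of glycinergic cells. Slc17a6 and Slc17a7 load glutamate into vesicles, Chat makes acetylcholine and Slc18a3 loads it, and Tph2 carries out the rate-limiting step of serotonin synthesis in the brain.

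Values are log2 signals after background correction and quantile normalisation, and a probe counted as detected on an array at a detection p-value under 0.05, the share of the array's negative controls that were brighter. Each array detected between 18827 and 22202 probes, and arrays of 1 condition correlated at 0.992 to 0.997 over all probes. Hprt1, the target of the shRNA, was lower in knockdown than in control cells, with log2 differences of -4.09 in ES cells, -1.76 in SNM and -4.45 in neuronal cells, so the labels held throughout, with the weakest knockdown in SNM. A gene with several probes is described by the brightest, and no level is set against that of another gene, since probes differ in brightness.

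Of the 9 genes, 4 were detected on all 3 arrays in control ES cells and 2 in knockdown ES cells, 3 and 4 in SNM, and 4 and 6 in neuronal cells. Over all probes on the array, this share lay between 38.6% and 44.4% in the 6 conditions. Gad1 was detected on all 18 arrays. Slc32a1 was missed on 1 array and Tph2 on 2. Slc17a6 was detected on 13 arrays, Slc17a7 on 10, and Chat and Slc18a3 on 5 each.

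Gad2 and Slc6a5 were undetected in every condition. The single Gad2 probe gave raw signals between 48.5 and 65.7 and detection p-values from 0.253 upward, and the brighter of the 2 Slc6a5 probes gave raw signals between 53.2 and 76.3 with detection p-values from 0.0844 upward. A probe that is undetected on all arrays shows only that no signal above the negative controls was measured with it, and neither gene was tested. A further Gad1 probe and 2 Chat probes were also undetected on all 18 arrays.

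**Figure D1:**
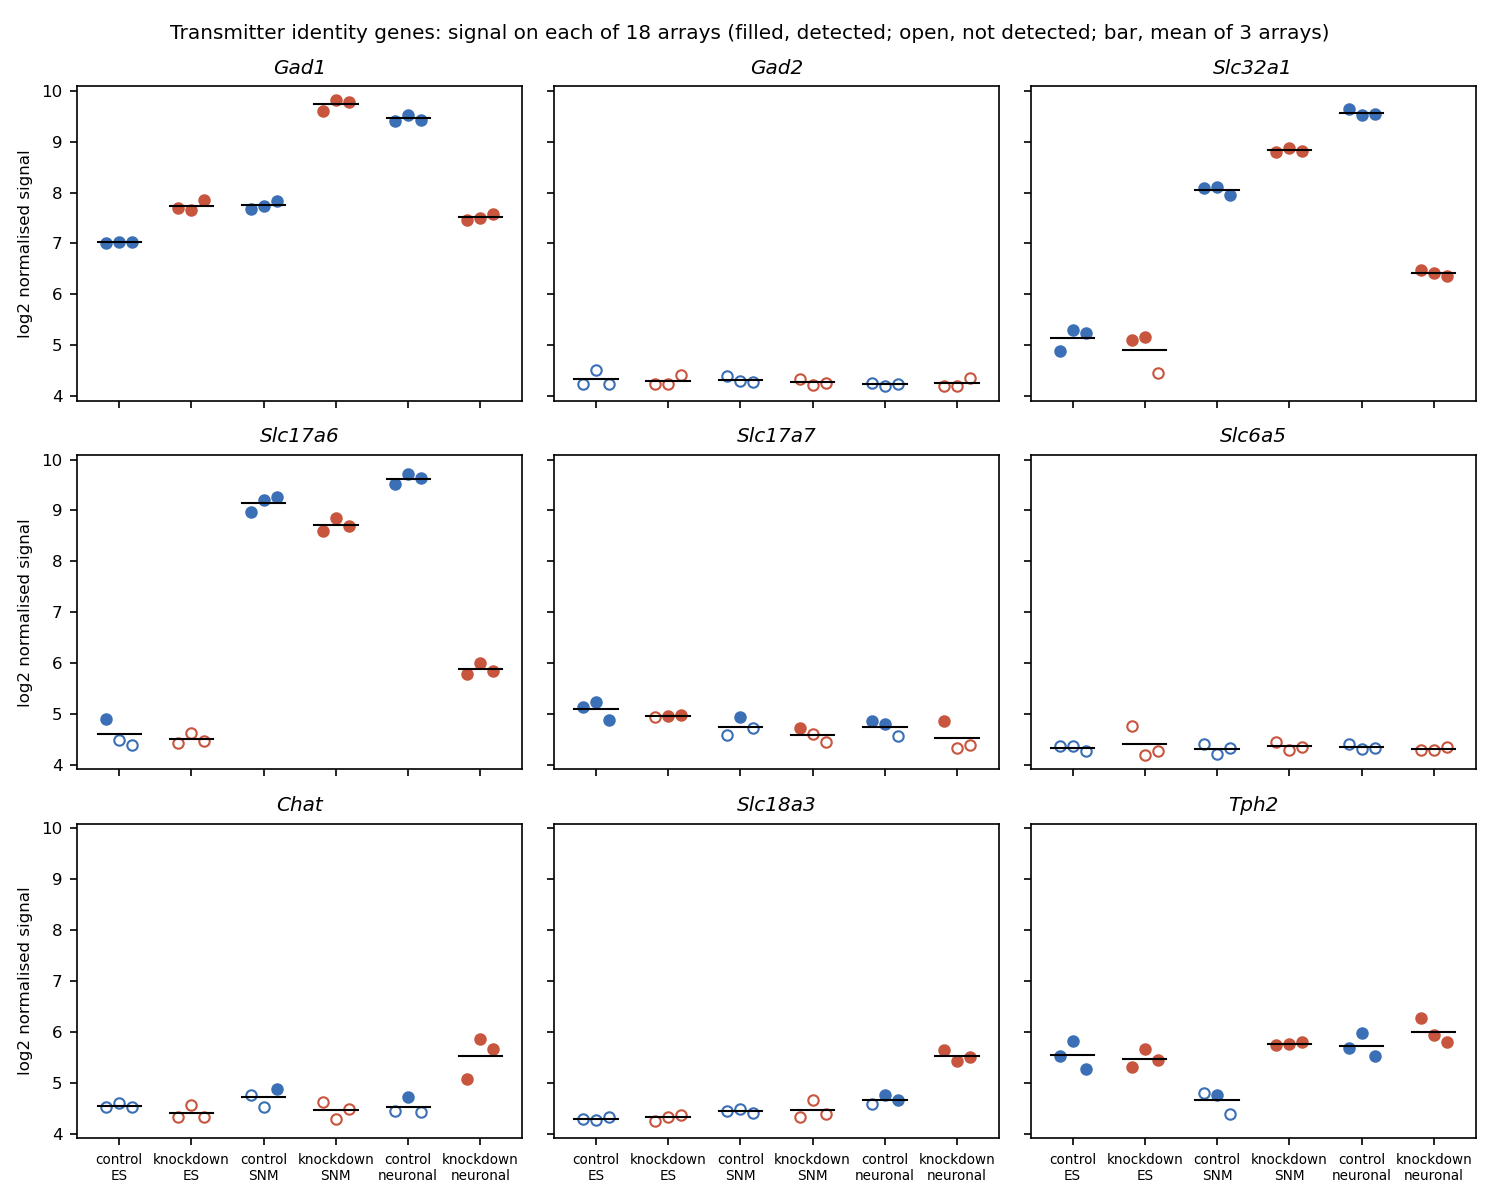
Log2 normalised signal of the brightest probe of each gene on each of the 18 arrays, with control cells in blue, knockdown cells in red, filled points for arrays on which the probe was detected, open points for the others, and a bar at the mean of the 3 arrays. Gad1, Slc32a1 and Slc17a6 are high at the neuronal stage in control cells (means 9.45, 9.57 and 9.62) and low in knockdown cells (7.51, 6.42 and 5.88), while Chat and Slc18a3 are detected on all 3 arrays only of knockdown cells at the neuronal stage.

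Between knockdown and control cells, Gad1 alone was called in ES cells, and at the neuronal stage Gad1, Slc32a1 and Slc17a6 were lower in knockdown cells while Chat and Slc18a3 were higher. A gene was called at a limma adjusted p under 0.05 (Benjamini-Hochberg over all probes tested) and a difference of at least 1.5-fold. At the ES stage 4 of the 9 genes could be tested, and Gad1 was called higher in knockdown cells, where 1.68% of all tested probes were called (0.516% higher, 1.17% lower). In SNM 4 could be tested and 3 were called, Gad1, Slc32a1 and Tph2, all higher in knockdown cells, beside 19.9% of all tested probes called (11% higher, 8.9% lower). Of these, Tph2 could be tested only through its detection on the knockdown arrays, where it was high, which favoured the direction called. At the neuronal stage 6 could be tested and these 5 were called, beside 27.4% of all tested probes called (13.5% lower, 13.9% higher). Chat and Slc18a3 could be tested only because all 3 knockdown arrays, where they were high, detected them. This filter favoured the direction called. In bulk RNA, fewer cells of a type and less RNA per cell cannot be told apart.

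Between stages, Gad1 and Slc32a1 rose in both steps in control cells, while in knockdown cells Gad1, Slc32a1 and Slc17a6 rose in the first step and fell in the second. From the ES to the SNM stage, 5 genes could be tested in control cells, and Gad1, Slc32a1 and Slc17a6 were called higher and Tph2 lower, beside 49.1% of all tested probes called (23.7% higher, 25.4% lower). In knockdown cells 4 could be tested and 3 were called, Gad1, Slc32a1 and Slc17a6, all higher, beside 57.3% of tested probes called (26.4% higher, 30.9% lower). From the SNM to the neuronal stage, 3 of 4 tested genes were called in control cells, Gad1, Slc32a1 and Tph2, all higher, beside 29.4% of tested probes called (14.3% higher, 15.1% lower). In knockdown cells 5 of 6 were called: Gad1, Slc32a1 and Slc17a6 fell and Chat and Slc18a3 rose, beside 28.6% of tested probes called (14.8% lower, 13.8% higher). Slc17a6 in the first step, and Slc32a1 there in knockdown cells, could be tested only through their detection in SNM. Tph2 in control cells, and Chat and Slc18a3 in knockdown cells, could be tested only through the stage at which they were higher. In each case this filter favoured the direction called. The stage comparisons and the knockdown comparisons share arrays, so each is given with its own values and none counts as a repeat of another.

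**Figure D2:**
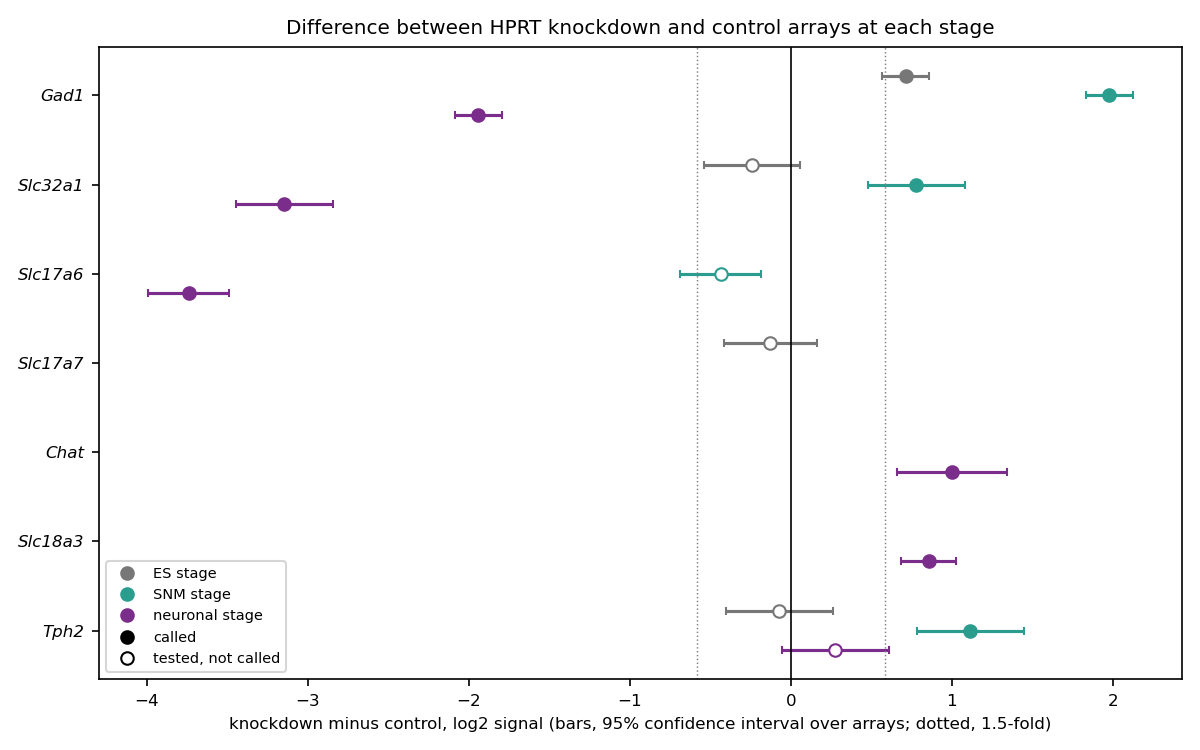
Knockdown minus control difference in log2 signal at each stage for the 7 genes detected in some condition, with 95% confidence intervals over arrays, filled points for called differences, open points for tested differences that were not called, no point where a gene was not tested, and dotted lines at 1.5-fold. Gad1 and Slc32a1 lie to the right of 0 at the SNM stage (1.98 and 0.78) and to the left at the neuronal stage (-1.94 and -3.15), and Slc17a6 lies furthest left at the neuronal stage (-3.74).

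Gad1, the decarboxylase that makes most of the GABA in the cell body, was measured well above background throughout, and it was the single member called between knockdown and control cells in the undifferentiated state. Promoter sequence is shown for Gad1 because it was detected on every array and for Gad2 because its paralogue with the same enzymatic role was detected on none. Sequences are the 250 bases before the annotated transcription start, 5′ to 3′ on the gene's strand, from RefSeq in build GRCm38.p6, whose table held 11 starts for all 9 genes. Capitals mark matches, on either strand, to 6 motifs: the GC box letters GGGCGG, the CAT box letters CCAAT, the TATA box letters TATAAA, the E-box letters CAGCTG, the homeodomain core letters TAATTA, and the letters GGACAGC from the element bound by the repressor Rest. The matches may overlap.
Gad1 (chr2:70561879-70562128, plus strand): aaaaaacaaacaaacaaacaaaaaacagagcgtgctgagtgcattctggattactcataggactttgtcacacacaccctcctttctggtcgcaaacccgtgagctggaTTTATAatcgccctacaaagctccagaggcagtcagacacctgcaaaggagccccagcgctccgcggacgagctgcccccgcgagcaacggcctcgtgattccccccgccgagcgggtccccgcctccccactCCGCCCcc
Gad2 (chr2:22622077-22622326, plus strand): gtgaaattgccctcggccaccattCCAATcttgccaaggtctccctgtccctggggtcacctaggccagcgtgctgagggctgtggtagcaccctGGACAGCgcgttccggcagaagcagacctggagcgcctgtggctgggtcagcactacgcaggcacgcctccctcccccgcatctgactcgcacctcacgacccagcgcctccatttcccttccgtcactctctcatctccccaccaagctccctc
The Gad1 stretch, with a GC content of 58.0% against a median of 52.4% over 32851 promoters, holds 1 match to TATAAA, found in 12.4% of all promoters, and 1 to GGGCGG, found in 32.7%. The Gad2 stretch, with a GC content of 64.0%, holds 1 match to CCAAT, found in 33.8%, and 1 to GGACAGC, found in 5.28%. A match is a run of letters and not a measured binding site.

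In ES cells, log2 signals of Gad1 were 7.0, 7.03 and 7.03 on the control arrays and 7.69, 7.65 and 7.86 on the knockdown arrays. Every knockdown array was above every control array. The difference was 0.72 ± 0.07 (SE, n = 3 against 3; 1.64-fold; limma adjusted p = 1.14e-05), and it passed the 1.5-fold threshold only narrowly. It fell below that threshold under 3 other ways of computing it, at 0.55 with quantile normalisation and no background correction, 0.57 with scaling to the 75th percentile and 0.49 as the mean over all Gad1 probes.

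In SNM, Gad1 gave 7.68, 7.74 and 7.83 on the control arrays and 9.60, 9.81 and 9.77 on the knockdown arrays. The groups lay far apart, and the difference of 1.98 ± 0.07 was 3.95-fold (limma adjusted p = 2.32e-12). Later the order turned. Neuronal control arrays gave 9.41, 9.52 and 9.43 and knockdown arrays gave 7.47, 7.50 and 7.57. All knockdown arrays were now below all control arrays, with a difference of -1.94 ± 0.07, or 3.84-fold (limma adjusted p = 6.33e-13). Over stages, Gad1 rose in control cells by 0.73 ± 0.07 from the ES to the SNM stage and by 1.71 ± 0.07 from there to the neuronal stage, the first of these being under 1.5-fold with quantile normalisation and no background correction (0.57) or as the mean over its 4 probes (0.37). In knockdown cells it rose by 1.99 ± 0.07 and then fell by 2.22 on the log2 scale. Ordered by level, knockdown SNM was highest, then control neuronal, control SNM, knockdown ES, knockdown neuronal and control ES cells, and of these neighbours only control SNM and knockdown ES cells overlapped.

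The separate Gad1 probes did not all follow this pattern. The second probe by brightness gave knockdown differences of 0.80 in ES cells, 1.95 in SNM and -1.87 in neuronal cells, each called. The third was dim, with raw signals between 68.2 and 101, and its knockdown difference was 0.42 in ES cells (limma adjusted p = 0.11) and -0.07 in SNM (limma adjusted p = 0.758). From the ES stage to SNM in knockdown cells this probe was called lower, by -0.66 ± 0.16 (limma adjusted p = 0.00145), opposite to the rise of 1.99 on the brightest probe. In neuronal cells the third probe was detected on 3 of 3 control arrays and 0 of 3 knockdown arrays, at least 1.42-fold lower in knockdown cells. The fourth probe was undetected throughout. In the array's annotation the first and second carry a RefSeq transcript of Gad1, and the other 2 carry none.

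**Figure D3:**
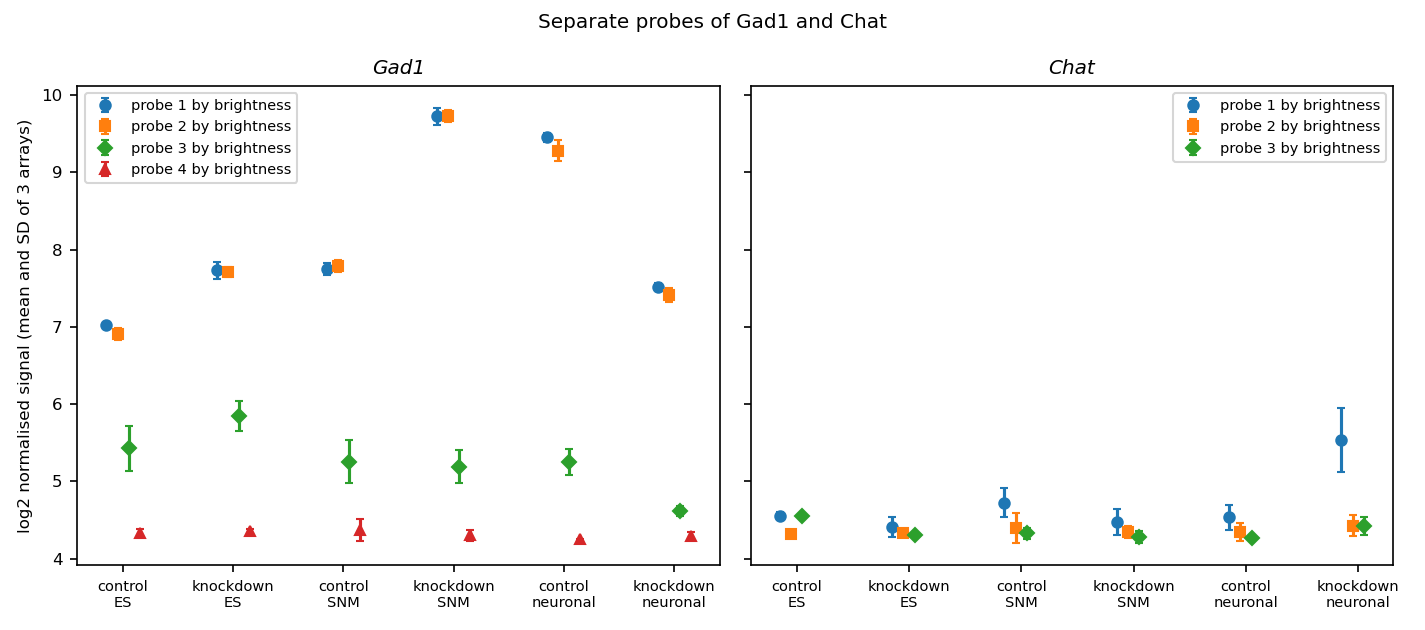
Mean log2 normalised signal with SD of 3 arrays for each probe of Gad1 (left) and Chat (right) in the 6 conditions, numbered by brightness. Probes 1 and 2 of Gad1 follow each other, probe 3 is lower in SNM than in ES knockdown cells (-0.66), where they rise, and 1 of 3 Chat probes rises in knockdown cells at the neuronal stage while the other 2 stay undetected.

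Slc32a1, the vesicular transporter for GABA and glycine, was barely above background in ES cells and rose strongly with differentiation. Its promoter is shown with that of Slc17a6, the vesicular transporter for glutamate, because these genes mark different transmitters and had the most similar profiles among the 9.
Slc32a1 (chr2:158610508-158610757, plus strand): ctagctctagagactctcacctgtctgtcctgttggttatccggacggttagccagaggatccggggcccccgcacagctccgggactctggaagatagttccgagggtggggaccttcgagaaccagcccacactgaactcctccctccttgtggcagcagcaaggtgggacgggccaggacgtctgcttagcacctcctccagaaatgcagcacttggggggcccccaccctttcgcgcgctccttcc
Slc17a6 (chr7:51621580-51621829, plus strand): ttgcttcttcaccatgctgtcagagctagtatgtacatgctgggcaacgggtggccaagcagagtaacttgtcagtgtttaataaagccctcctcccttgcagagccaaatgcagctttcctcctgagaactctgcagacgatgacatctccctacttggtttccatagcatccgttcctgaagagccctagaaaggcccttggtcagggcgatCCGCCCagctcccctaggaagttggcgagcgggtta
The Slc32a1 stretch, with a GC content of 62.4%, holds no match to the 6 motifs. The Slc17a6 stretch, the more upstream of 2 annotated starts and with a GC content of 53.2%, holds 1 match to GGGCGG.

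In control cells, Slc32a1 signals were 4.90, 5.31 and 5.24 in ES cells, 8.08, 8.10 and 7.96 in SNM, and 9.64, 9.52 and 9.55 in neuronal cells. Each stage lay above the one before without overlap. The rises were 2.90 ± 0.14 and 1.52 ± 0.14 on the log2 scale, 7.46-fold and 2.87-fold (limma adjusted p = 1.64e-11 and 1.22e-07).

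In knockdown cells, Slc32a1 was detected on 2 of 3 arrays at the ES stage, at 5.10, 5.16 and 4.46, and did not pass the test against control ES cells (-0.24 ± 0.14, limma adjusted p = 0.313). In SNM it reached 8.79, 8.87 and 8.82, all above the control arrays by 0.78 ± 0.14 or 1.72-fold (limma adjusted p = 0.000236). Neuronal knockdown arrays gave 6.49, 6.42 and 6.36. They were below every control array, with a difference of -3.15 ± 0.14 or 8.85-fold (limma adjusted p = 1.44e-11), and below the knockdown SNM arrays, with -2.40 ± 0.14 or 5.29-fold.

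Slc17a6, the vesicular glutamate transporter typical of subcortical and embryonic neurons, was detected on 1 of 3 control and 0 of 3 knockdown arrays in ES cells and was not tested there. In SNM it gave 8.97, 9.20 and 9.27 on control arrays and 8.60, 8.85 and 8.69 on knockdown arrays. The groups did not overlap, but the difference of -0.44 ± 0.12 (limma adjusted p = 0.00554) was 1.35-fold and was not called. Neuronal control arrays gave 9.52, 9.72 and 9.63 and knockdown arrays 5.80, 6.0 and 5.84.

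That neuronal difference of -3.74 ± 0.12, or 13.4-fold (limma adjusted p = 1.51e-13), was the largest between knockdown and control cells among the 9 genes by the fit used here. The second Slc17a6 probe gave -0.46 in SNM and -3.81 in neuronal cells. From the ES to the SNM stage, Slc17a6 rose by 4.55 ± 0.12 on the log2 scale in control cells, from a stage at which 1 of 3 arrays detected it, and at least 13.7-fold in knockdown cells, from a stage at which none did. These values have different bases and do not rank the rises. From the SNM to the neuronal stage it differed by 0.47 ± 0.12 in control cells, or 1.39-fold and not called, and fell by 2.83 on the log2 scale in knockdown cells. Knockdown neuronal cells still lay above both groups of ES cells, on all 3 arrays.

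Slc17a7, the vesicular glutamate transporter typical of cortical neurons, stayed near background. Condition means lay between 4.54 and 5.09, and control ES cells were the only condition in which it was detected on all 3 arrays. Knockdown and control ES cells differed by -0.13 ± 0.13, with a 95% interval from -0.41 to 0.16 (limma adjusted p = 0.614). In control cells the SNM stage differed from the ES stage by -0.34, which was 1.26-fold and not called. At the SNM and neuronal stages it was not tested between knockdown and control cells.

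Across the 18 arrays, log2 signals of Slc32a1 and Slc17a6 had a Pearson correlation of 0.968, those of Gad1 and Slc32a1 of 0.83, and those of Gad1 and Slc17a6 of 0.74. The points share 6 RNA pools, so these values describe the profiles and carry no test.

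Chat and Slc18a3 act together: the synthetic enzyme and the vesicular transporter of acetylcholine are encoded at 1 locus, in which the annotated Slc18a3 start lies 1059 bases downstream of the Chat start on the same strand. The Chat promoter is shown because both genes of the locus were called higher in the same cells.
Chat (chr14:32465910-32466159, minus strand): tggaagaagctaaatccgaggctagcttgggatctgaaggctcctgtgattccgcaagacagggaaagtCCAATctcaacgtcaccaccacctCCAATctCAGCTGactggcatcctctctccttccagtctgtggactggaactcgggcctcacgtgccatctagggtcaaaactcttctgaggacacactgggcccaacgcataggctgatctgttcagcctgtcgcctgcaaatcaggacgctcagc
This stretch, with a GC content of 54.8%, holds 2 matches to CCAAT and 1 to CAGCTG, which 13% of all promoters hold.

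Both cholinergic genes were near background in 5 conditions. At the neuronal stage, Chat gave 4.45, 4.72 and 4.43 on control arrays, of which 1 was detected, and 5.07, 5.87 and 5.67 on knockdown arrays, all detected. Slc18a3 gave 4.59, 4.76 and 4.67 on control arrays, of which 2 were detected, and 5.64, 5.43 and 5.52 on knockdown arrays, all detected. For both genes each knockdown array was above each control array. Both could be tested here only through their detection on the knockdown arrays, which favoured a higher value there. Chat was higher by 1.00 ± 0.16 on the log2 scale (limma adjusted p = 5.31e-05), set against control arrays of which 2 were not above background, and Slc18a3 by 0.86 ± 0.08 or 1.81-fold (limma adjusted p = 1.26e-07).

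Between SNM and neuronal knockdown cells, Chat was at least 1.81-fold and Slc18a3 at least 1.80-fold higher, as neither was detected at the SNM stage. In control cells neither gene could be tested in that step. These are dim signals: raw values in knockdown neuronal cells were 80.2 to 106 for Chat and 88.9 to 99.8 for Slc18a3. With no background correction or with an offset of 50, the knockdown difference was 0.47 to 0.54 for Chat and 0.38 to 0.44 for Slc18a3, under 1.5-fold. The mean over the 3 Chat probes gave 0.41, since the other 2 were undetected, and 1 of these carries the newer version of the Chat transcript in the array's annotation. The correlation between Chat and Slc18a3 across the 18 arrays was 0.799.

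Tph2, the serotonin-producing hydroxylase of neurons, had 1 probe, which was dim, with raw signals between 65.8 and 125 over the 18 arrays. It was detected in both groups of ES cells. Its log2 signals there were 5.53, 5.83 and 5.28 in control cells and 5.31, 5.66 and 5.46 in knockdown cells. The groups overlapped, and the difference was -0.07 ± 0.16 with a 95% interval from -0.40 to 0.26 (limma adjusted p = 0.834). In SNM, control arrays gave 4.81, 4.77 and 4.40, with Tph2 detected on 1 of 3, while knockdown arrays gave 5.74, 5.77 and 5.82. All knockdown arrays were higher, by 1.12 ± 0.16 on the log2 scale (limma adjusted p = 1.96e-05), set against control arrays of which 2 were not above background. Tph2 could be tested in SNM only through its detection on the knockdown arrays.

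In neuronal cells Tph2 signals were 5.69, 5.98 and 5.53 in control cells and 6.27, 5.94 and 5.81 in knockdown cells. These overlapped, and the difference of 0.28 ± 0.16 had a 95% interval from -0.06 to 0.61 (limma adjusted p = 0.143). In control cells Tph2 fell by 0.88 from the ES to the SNM stage and rose by 1.07 from there to the neuronal stage. In knockdown cells it differed by 0.30 and by 0.23 in these steps, and neither difference passed the test (limma adjusted p = 0.0875 and 0.21). With no background correction or with an offset of 50, the SNM difference between knockdown and control cells was 0.52 to 0.58 and the rise from SNM to neuronal control cells 0.50 to 0.56, under 1.5-fold. The fall from ES cells to SNM in control cells was then -0.41 with quantile normalisation and -0.45 with the offset, also under 1.5-fold.

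The knockdown difference itself changed between stages for most of the set, by limma contrasts of the difference. From the ES to the SNM stage, 5 genes could be tested and 3 were called, Gad1, Slc32a1 and Tph2, all with a more positive difference at the SNM stage, beside 21.3% of all tested probes called (11.7% in that direction, 9.61% in the other). From the SNM to the neuronal stage all 6 genes tested were called. The difference became more negative for Gad1, Slc32a1, Slc17a6 and Tph2 and more positive for Chat and Slc18a3, beside 28.6% of all tested probes called (14.8% more negative, 13.7% more positive). Chat and Slc18a3 could be tested here only through neuronal knockdown cells, where they were high, so the filter favoured a more positive difference.

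The genes around these 9 were followed in 9 lists. Handling lists hold the other enzymes, transporters and scaffold proteins of each transmitter, and selector lists hold transcription factors that set transmitter fate in the embryo. The lists are not independent, since some genes, such as Gata3 and Pax6, stand on more than 1. At the ES stage no gene of any of the lists was called, beside 1.68% of all tested probes called. Between 3 and 14 genes per list could be tested there, so the absence of calls lies near that share. List medians lay between -0.30 and -0.03 beside 0.01 over all tested probes.

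In SNM, 4 of 11 tested genes of GABA and glycine handling were called higher in knockdown cells and 0 lower, with a median of 0.29 beside -0.04 over all tested probes, of which 19.9% were called (11% higher, 8.9% lower). They included Slc6a11, a plasma membrane GABA transporter, at least 6.99-fold higher, and Abat, which breaks GABA down, higher by 1.36. Of 14 tested genes of glutamate handling, 4 were higher and 1 lower (median 0.27). Slc17a8, a further vesicular glutamate transporter, was higher by 1.15 and Glud1, glutamate dehydrogenase, by 1.08. Of 7 tested genes of acetylcholine handling, Acly, a source of acetyl-CoA, was called lower and none higher (median 0.12). Of 8 tested genes of serotonin and shared monoamine handling, Slc18a2, the vesicular monoamine transporter, was higher by 0.84, and Ddc, which makes serotonin and dopamine from their precursors, and Pcbd1 were lower (median -0.47).

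Selector factors moved in both directions at that stage, beside 19.9% of all tested probes called (11% higher, 8.9% lower). The counts of glutamatergic and of cholinergic factors called higher lie near that share. Of 17 tested GABAergic and glycinergic factors, 4 were higher and 6 lower in knockdown cells (median -0.15). Dlx1 and Dlx2, forebrain factors of GABAergic neurons, were higher by 2.96 ± 0.09 and 2.64 ± 0.12, while Gbx2, Sp8 and Tal2 were lower by -2.28, -2.21 and -1.44. Of 15 tested glutamatergic factors, 2 were higher and 5 lower (median -0.35), with Lmx1a, also a midbrain dopaminergic factor, at 2.42 and Neurod4 at -2.07. Of 7 tested cholinergic and motor neuron factors, 1 was higher and 2 lower (median 0.12), and of 7 serotonergic factors 2 were higher and 2 lower (median -0.09), with Foxa2 at 1.05. Of 22 tested genes of neuron structure and maturation, 9 were higher and 3 lower (median 0.48), with Rbfox3 at 1.53, Syp at 1.45 and the neurofilament gene Nefm at -2.03.

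In neuronal cells, 4 of 12 tested genes of GABA and glycine handling were higher in knockdown cells and 1 lower (median 0.31 beside 0.01 over all tested probes, of which 27.4% were called). The counts of glutamate and of serotonin and monoamine handling below lie near that share. The higher genes included Slc6a9, a glycine transporter also found in glia, at 1.38, and Glrb, the beta subunit of glycine receptors, at 1.25. Of 14 tested genes of glutamate handling, 3 were higher and 1 lower (median 0.20). Slc1a1 and Slc1a2, plasma membrane glutamate transporters, were higher by 3.44 ± 0.14 and 2.91 ± 0.07, and Slc17a8 was lower by -0.61. Of 7 tested genes of acetylcholine handling, 2 were higher and 1 lower (median 0.28), with the choline transporter Slc44a1 at 2.71. Of 9 tested genes of serotonin and shared monoamine handling, 2 were higher and 0 lower (median 0.36), with Ddc at 1.71 and Pcbd1 at 1.02.

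Selector factors were more often lower than higher at that stage, by 9 to 4, 7 to 1, 5 to 3 and 4 to 2 genes, beside 13.5% of all tested probes called lower and 13.9% called higher. All 13 tested GABAergic and glycinergic factors were called, 4 higher and 9 lower (median -1.10). Lhx1 was lower by -3.33 ± 0.20, Lhx5 was at least 6.04-fold lower, Gsx1 was higher by 1.75 and Dlx1 by 0.86. Of 10 tested glutamatergic factors, 1 was higher and 7 lower (median -1.0), with Bhlhe22 at -1.48 and Neurod1 at -1.26. Of 10 tested cholinergic and motor neuron factors, 3 were higher and 5 lower (median -0.31): Isl2 and Nkx6-2 were higher by 1.35 and 2.00 and Olig2, which also marks oligodendrocytes, by 2.08, and Isl1 was lower by -2.81. Of 7 tested serotonergic factors, 2 were higher and 4 lower (median -1.10), with Nkx2-2, also an oligodendrocyte factor, at 5.32 and Gata3 at -1.54. Of 22 tested genes of neuron structure and maturation, 0 were higher and 15 lower (median -1.19), with Ina at -3.57, Stmn2 at -3.07 and Elavl2 at -2.77.

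**Figure D4:**
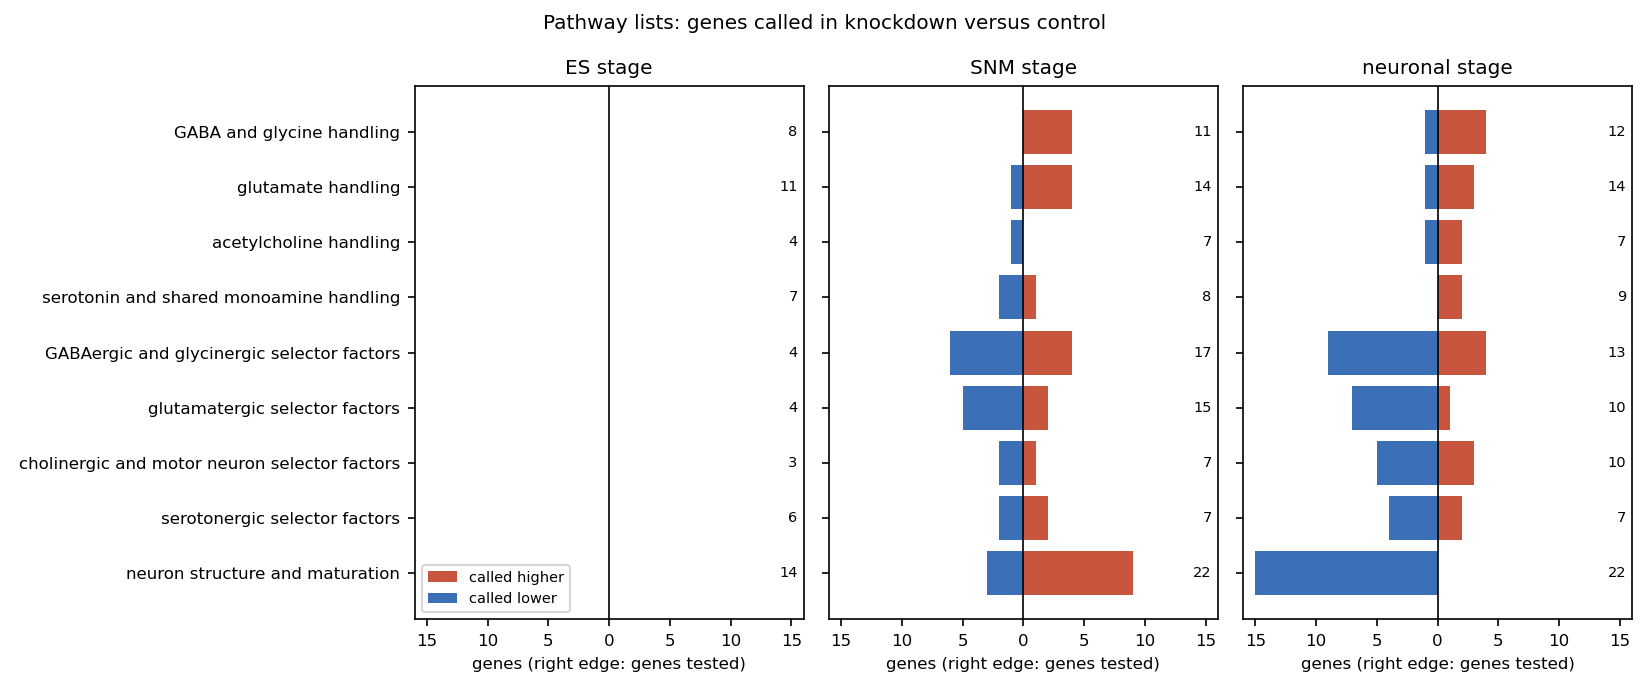
Number of genes of each of the 9 lists called higher (red, to the right) or lower (blue, to the left) in knockdown than in control cells, with a panel for each stage, with the number of genes tested at the right edge of each panel. No gene is called at the ES stage, where 1.68% of all tested probes are called. At the neuronal stage the selector lists have 9, 7, 5 and 4 genes lower, and neuron structure and maturation has 15, beside 13.5% of all tested probes called lower.

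Markers of other cell types moved with these differences at the neuronal stage. The summed signal of 10 oligodendrocyte markers, the sum of linear normalised signals, was 3420 to 3610 on control arrays, with 8 markers detected on all 3 arrays and Mog on none, and 67600 to 70900 on knockdown arrays, with 10 of 10 detected. Among 9 skeletal muscle markers it was 54900 to 55400 on control arrays, with 9 detected, and 272 to 369 on knockdown arrays, with 3 detected and Myog, Myod1, Ckm and Ttn on none. Control and knockdown cells thus differed in muscle and oligodendrocyte markers beside the transmitter genes. Among 8 neuron markers the sum was 7660 to 8130 in control and 1840 to 1900 in knockdown cells, with 7 and 6 detected. This sum rests largely on Stmn2, the brightest, with mean log2 signals of 12.01 in control and 8.93 in knockdown cells. Dcx, Syp, Elavl4 and Rbfox3 were also lower in knockdown cells, while means of Elavl3 were 8.14 and 8.13. Tubb3 was on no knockdown array, and Snap25 on no array of either group.

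The other marker lists differed less in summed signal, which rests on their brightest markers. In neuronal cells, 8 astrocyte and radial glia markers summed to 13800 to 15100 in control and 17600 to 18300 in knockdown cells, and 6 fibroblast and feeder markers to 20000 to 23400 and 10400 to 13800, with all markers of both lists detected. Single astrocyte markers differed more than their sum: mean log2 signals of S100b were 5.08 in control and 9.56 in knockdown cells, those of Gfap 9.77 and 11.38, and those of Gja1 12.40 and 11.69. The 6 pluripotent markers summed to 9120 to 9390 and 3730 to 4080, all detected. Of 6 dopaminergic markers, 3 were detected on all 3 arrays in either group, and the sum was 812 to 913 in control and 2430 to 2560 in knockdown cells, most of it Ddc. Th, the rate-limiting enzyme of dopamine synthesis, was detected on 1 control array and 0 knockdown arrays. Slc6a3, the dopamine transporter, was detected on 0 and 1, and Pitx3 on none, so these 3 probes were at or near background. Slc18a2 (means 5.24 in control and 5.79 in knockdown cells) and Nr4a2 (5.09 and 5.23) were detected on all arrays of both groups. By protein, the study found most cells of both kinds positive for TH, but it described its TH transcript results as inconsistent. By qPCR it found the dopamine transporter modestly up-regulated over differentiation in control cells and more strongly in knockdown cells. The part of the marker differences in the transmitter results was not tested.

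At the SNM stage, where Gad1, Slc32a1 and Tph2 were higher in knockdown cells, the markers lay closer together. Neuron markers summed to 3810 to 3920 in control and 4320 to 4380 in knockdown cells (7 and 6 of 8 detected, Snap25 on no array), oligodendrocyte markers to 15700 to 15900 and 10800 to 11700 (9 of 10 detected in both, Mog on no knockdown array), and astrocyte and radial glia markers to 15300 to 16800 and 22500 to 23700 (8 of 8). Skeletal muscle markers summed to 1180 to 1190 and 2120 to 2400 (5 and 8 of 9 detected, Ckm on no array and Myod1 on no control array). Pluripotent markers summed to 9540 to 10400 and 6780 to 7180 (6 of 6), fibroblast and feeder markers to 5840 to 6450 and 6620 to 8230 (6 of 6), and dopaminergic markers to 516 to 533 and 383 to 437 (3 of 6, with Slc6a3 and Pitx3 on no array). Their part in the results was not tested.

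At the ES stage, where Gad1 alone was called, 6 of 6 pluripotent markers were detected in both groups and summed to 41500 to 42600 in control and 42700 to 44900 in knockdown cells. Neuron markers summed to 1450 to 1500 and 1460 to 1510 (5 and 4 of 8 detected), and fibroblast and feeder markers to 282 to 333 and 231 to 248 (2 and 1 of 6 detected, with Col1a1, Postn and Lum on no array).

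**Figure D5:**
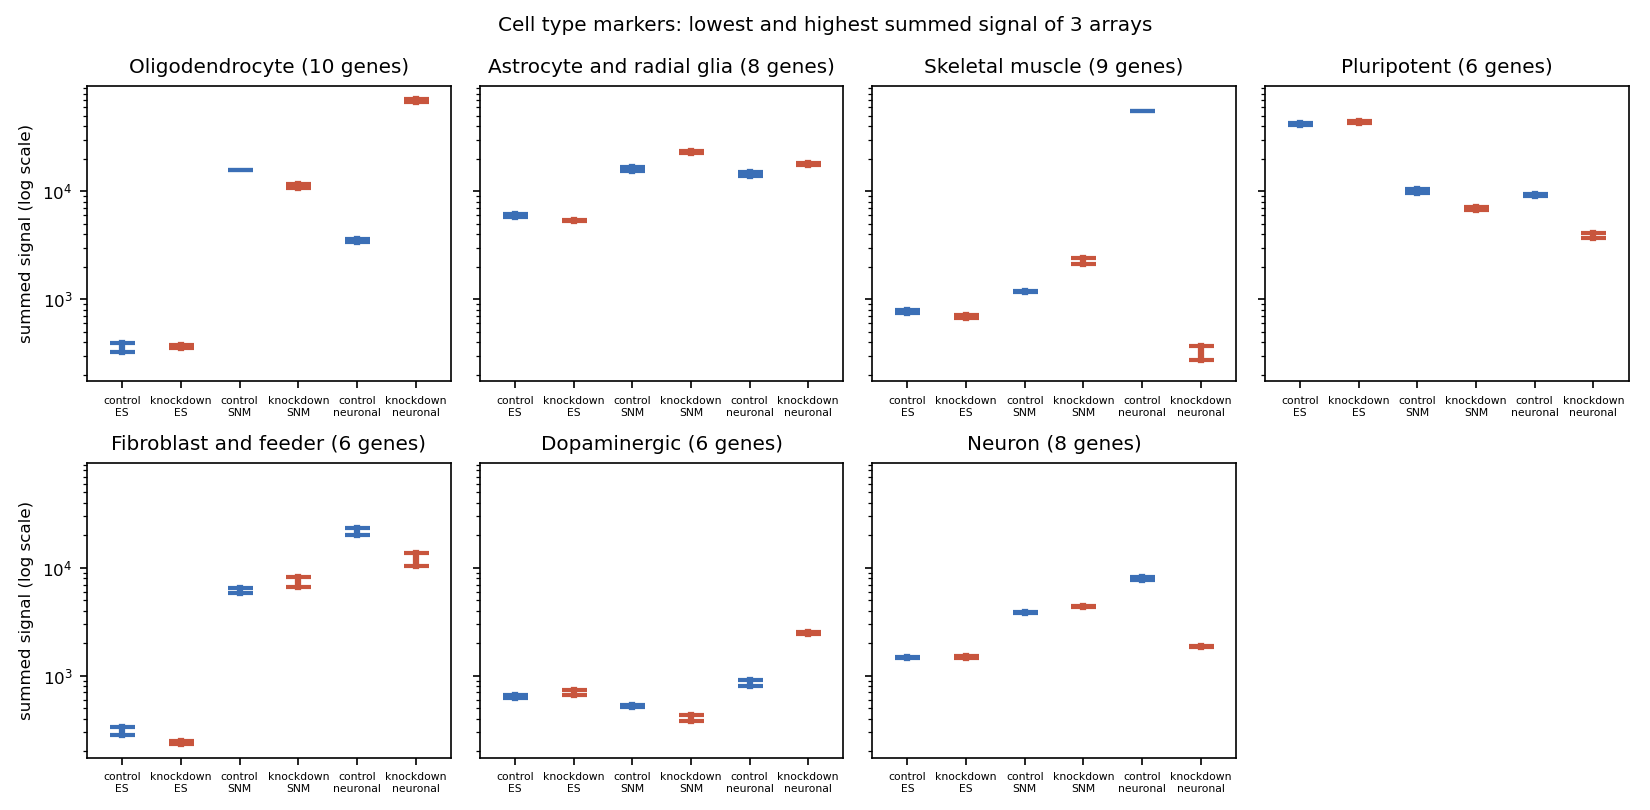
Lowest and highest summed signal over 3 arrays, on a log axis, of 7 lists of cell type markers in control (blue) and knockdown (red) cells at each stage. At the neuronal stage the knockdown arrays are high in oligodendrocyte markers (67600 to 70900) and low in skeletal muscle markers (272 to 369) and neuron markers (1840 to 1900).

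The probes most like each gene over the 18 arrays were taken from 12866 probes that were detected in at least 1 condition and spanned at least 1 log2 unit. They are a description of shared profiles over 6 RNA pools and carry no test. For Gad1 the nearest named genes were 4Cytl1 (Pearson correlation 0.972), Slc12a5, the neuronal chloride transporter (0.961), and Cirbp (0.96). For Slc32a1 they were Mmp24 (0.996), 6330404F12Rik (0.994) and Klc1 (0.993), and for Slc17a6 they were Fat4 (0.991), the transcription factor Lhx1 (0.989) and Slc7a11 (0.988). For Slc18a3 they were Grm7, a glutamate receptor (0.986), and Isl2, the motor neuron factor of the list above (0.977). Likeness was lower for Chat, with Neto1 at 0.933, and for Tph2, with Crtac1 at 0.865.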

How the data were processed

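The authors deposited, for each probe and array, the average bead signal intensity with no background subtracted and no scaling, and a detection p-value. A second deposited table was used for probe annotation (symbol, chromosome, transcript); its 72 value columns, named by chip position, were not used here. Probe sequences were not used here.

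Signals were corrected and normalised by the neqc function (limma 3.58.1, R 4.3.3; background from the detection p-values, offset 16, quantile normalisation, log2). A single limma model with 6 condition means was fitted to all 18 arrays (lmFit, contrasts.fit, eBayes). A probe was tested where every array of some compared condition detected it at p under 0.05, and called at a two-sided Benjamini-Hochberg adjusted p under 0.05 and at least 1.5-fold. The script was tested on simulated data. Where a compared condition had no detected array, "at least" fold changes are set against that array's lowest detected signal or the probe's own, whichever was higher.

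The members, the 9 gene lists and the 7 marker lists were chosen with earlier results of these data known. Named are all members, Hprt1, up to 3 called genes per list and direction, markers, and up to 5 nearest probes per member. The lists hold GABA and glycine, glutamate, acetylcholine, and serotonin and monoamine handling, the 4 kinds of selector factor, and neuron structure.

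Arrays are numbered in the labels. Samples of the same number were correlated by their deviations from condition means. For knockdown against control, all 3 correlations were positive at the SNM stage (0.486, 0.108 and 0.489) and the neuronal stage (0.605, 0.0938 and 0.325). In knockdown cells they were positive between the ES and SNM stages (0.308, 0.0618 and 0.218) and between the SNM and neuronal stages (0.522, 0.139 and 0.511). The other comparisons had correlations of both signs. Values of some single genes on the lists are not reported here.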

Additional observations from a re-analysis of the deposited data

Results flagged for a closer look

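The difference between knockdown and control cells was itself different at different stages for 9 gene and stage pairs, by limma contrasts of the difference. Both sets of contrasts use the SNM arrays. From the ES to the SNM stage the difference in log2 signal became more positive by 1.27 for Gad1 (adjusted p = 6.2e-08), 1.02 for Slc32a1 (adjusted p = 0.000755) and 1.19 for Tph2 (adjusted p = 0.000499). From the SNM to the neuronal stage it moved by -3.92 for Gad1 (adjusted p = 1.33e-14), -3.93 for Slc32a1 (adjusted p = 1.22e-10), -3.31 for Slc17a6 (adjusted p = 1.06e-10) and -0.84 for Tph2 (adjusted p = 0.00526). For Chat it moved by 1.25 (adjusted p = 0.000263) and for Slc18a3 by 0.84 (adjusted p = 1.37e-05). Chat and Slc18a3 could be tested only through neuronal knockdown cells, where they were high. Gad1 and Slc32a1 changed sign, from higher to lower in knockdown cells, with no overlap of arrays at either stage. Slc17a6 was lower at both stages, and its difference at the SNM stage was not called. With no background correction or with an offset of 50, the change from the SNM to the neuronal stage was 0.38 to 0.48 for Slc18a3 and -0.43 to -0.37 for Tph2, and that of Tph2 between ES cells and SNM was 0.56 with quantile normalisation, all under 1.5-fold. As the mean over its probes, the difference of Gad1 moved by 0.46 between ES cells and SNM and that of Chat by 0.53 between SNM and neuronal cells, also under 1.5-fold.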

How the results depend on the processing

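The number of the 9 genes called was computed for 9 comparisons. Without background correction (quantile normalisation) it went from 1 to 0 for knockdown against control at the ES stage, from 5 to 3 at the neuronal stage, from 4 to 2 for the SNM against the ES stage in control cells, and from 5 to 3 for the neuronal against the SNM stage in knockdown cells. Scaling to the 75th percentile gave 0 at the ES stage, 3 at the neuronal stage and 3 for the neuronal against the SNM stage in knockdown cells. An offset of 50 gave 3 at the neuronal stage and 3 for the neuronal against the SNM stage in knockdown cells. A minimum of 2-fold gave 0 at the ES stage and 2 for the SNM against the ES stage in control cells, and the mean over all probes gave 0 at the ES stage. Counts that moved by no more than 1.5 times were the following. Knockdown against control at the SNM stage gave 2 in place of 3 with each change of background correction or offset and at 2-fold. At the neuronal stage it gave 4 in place of 5 at 2-fold, at a detection p under 0.01 and with the mean over all probes. The SNM against the ES stage in control cells gave 3 in place of 4 with an offset of 50 and with the mean over all probes. The neuronal against the SNM stage gave 2 in place of 3 in control cells with each change of background correction or offset, and 4 in place of 5 in knockdown cells at a detection p under 0.01 and with the mean over all probes. Differences of the knockdown effect gave 2 in place of 3 for the first step without background correction (quantile normalisation) and with the mean over all probes, and 4 or 5 in place of 6 for the second step under every one of these settings. Every lost call of Chat, Slc18a3 and Tph2 under a change of background correction or offset came from a fold change under 1.5. Leaving out each array in turn, counts stayed at 1, 3 and 5 for knockdown against control at the 3 stages, at 4 and 3 for the SNM against the ES stage, at 3 and 5 for the neuronal against the SNM stage in control and knockdown cells, and at 3 and 6 for differences of the knockdown effect.

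The array number as a replicate block gave the same counts in all 9 comparisons (1, 3, 5, 4, 3, 3, 5, 3 and 6) and changed no call. The methods' t-test gave 1, 3, 5, 4, 3, 3 and 5 genes in the 7 comparisons it was run on, both at their threshold and after Benjamini-Hochberg, and it was not run for differences of the knockdown effect. Of 741 recomputed differences of single genes, 693 kept their direction and side of the thresholds, 43 lost a call and 5 changed sign, none of them called. They were Tph2 between knockdown and control ES cells, which ranged from -0.20 (without control ES replicate 3) to 0.071 (without control ES replicate 2) and was 0.014 without knockdown ES replicate 1, and the change of the knockdown difference of Slc17a7 between ES cells and SNM, which ranged from -0.11 (without control SNM replicate 1) to 0.072 (without control ES replicate 3), with 0.060 without control SNM replicate 2 and 0.036 without knockdown SNM replicate 3. One RNA pool per condition limits every result to these pools.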
